A study of Mus musculus with 11 samples.

Results

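The 10 marker genes of the ducts, the myoepithelium and the general epithelium of the lacrimal gland were followed in whole glands of NOD mice, a strain whose males develop inflammation of this gland. The genes were taken from a list by name: *Krt7*, *Krt19* and *Muc1* for ducts, *Krt5*, *Krt14* and *Acta2* for myoepithelium, and *Krt8*, *Krt18*, *Epcam* and *Cdh1* for epithelium in general. They are 10 of the 19058 genes in the table of estimated counts, and all 10 passed the filter on low counts. RNA was sequenced from whole glands of male NOD mice, with 1 library per mouse: 3 wild-type (WT) mice, 5 *Tlr7* knockout (KO) mice and 3 *Ifnar1* KO mice. The *Tlr7* KO allele is a CRISPR/Cas9 deletion within *Tlr7*, which encodes a sensor of single-stranded RNA, and the *Ifnar1* KO mice lack a subunit of the type I interferon receptor. WT and *Tlr7* KO mice were 20 to 22 weeks old, and the age of the *Ifnar1* KO mice is not given in the sources used here. A further *Ifnar1* KO mouse was dropped by the study, since its gland resembled WT glands in expression and in inflammation, so the *Ifnar1* KO group was in part selected for being unlike WT. The question put to these data is whether duct, myoepithelial and general epithelial genes differ between WT glands and glands that lack either gene.

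The lacrimal gland makes tear fluid in acini, which drain through ducts lined by a simple epithelium. Myoepithelial cells lie between the acini and the basement membrane and contract to expel the fluid. Keratins form filaments from a type I and a type II partner. KRT8 pairs with KRT18 in simple epithelium, KRT7 and KRT19 are common in duct epithelium, and KRT5 pairs with KRT14 in basal and myoepithelial cells. In a whole gland, fewer cells of a type and less RNA per cell cannot be told apart.

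The region before the start site is shown for 4 members, 1 or more from each class. *Acta2*, *Krt5* and *Muc1* were each called lower in 1 knockout below, and *Epcam* in neither. RefSeq promoter sequences on GRCm38.p6 were found for 8 of the 10 members. The 250 bases before the annotated start are printed 5′ to 3′, and capitals mark a CArG-like element (CC, then 6 bases of which at least 5 are A or T, then GG) or a TATANA element.
*Acta2*, minus strand, chr19:34255374-34255623: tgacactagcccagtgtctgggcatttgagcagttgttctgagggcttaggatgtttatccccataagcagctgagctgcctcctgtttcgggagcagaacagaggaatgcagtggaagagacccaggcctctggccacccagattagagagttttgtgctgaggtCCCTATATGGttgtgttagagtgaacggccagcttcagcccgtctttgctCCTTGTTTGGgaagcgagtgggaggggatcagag
*Krt5*, minus strand, chr15:101712906-101713155: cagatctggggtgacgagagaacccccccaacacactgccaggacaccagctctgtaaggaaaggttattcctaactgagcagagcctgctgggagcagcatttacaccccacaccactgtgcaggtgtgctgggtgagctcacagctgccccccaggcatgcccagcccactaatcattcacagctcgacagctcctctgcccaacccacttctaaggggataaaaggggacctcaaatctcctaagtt
*Muc1*, plus strand, chr3:89228806-89229055: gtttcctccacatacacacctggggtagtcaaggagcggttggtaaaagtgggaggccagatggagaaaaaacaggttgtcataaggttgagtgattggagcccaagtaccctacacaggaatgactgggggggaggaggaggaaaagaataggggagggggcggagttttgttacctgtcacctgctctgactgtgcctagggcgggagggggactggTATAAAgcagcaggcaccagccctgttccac
*Epcam*, plus strand, chr17:87635729-87635978: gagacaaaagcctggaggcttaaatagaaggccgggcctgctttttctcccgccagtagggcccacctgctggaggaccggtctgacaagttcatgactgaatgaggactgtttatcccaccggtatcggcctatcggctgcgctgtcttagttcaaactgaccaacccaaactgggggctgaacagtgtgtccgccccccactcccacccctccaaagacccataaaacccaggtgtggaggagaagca
The *Acta2* window held 2 CArG-like elements, CCCTATATGG at -84 to -75 and CCTTGTTTGG at -34 to -25 from the RefSeq start, a type of element bound by serum response factor in muscle genes. Such an element, searched on both strands, was present in 8.59% of the 32851 RefSeq windows of this length. The *Muc1* window held TATAAA at -31 to -26, and TATANA, searched on the gene's strand, was present in 16.4% of windows. None of the 8 windows held TTCNNNGAA, the interferon-stimulated response element or TGANTCA on either strand, which 7.02%, 2.98% and 6.75% of windows held. These are matches of letters only.

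The libraries held 20512315 to 28814250 counts. *Tlr7* was at 36 to 99 counts in WT, 12 to 25 in *Tlr7* KO and 6 to 22 in *Ifnar1* KO mice, and *Ifnar1* was at 9.01 ± 0.648 counts per 1000000 counts (CPM; SD, n = 3) in *Ifnar1* KO against 13.5 ± 2.62 (n = 3) in WT mice, so neither transcript was lost in its own knockout. Some libraries carried transcripts of neighbouring tissues. The summed CPM of 5 measured salivary gland markers reached 2456 in WT 3, 2102 in *Ifnar1* KO 2 and 178 in *Ifnar1* KO 1, and was at most 3.11 in the others. The summed CPM of 6 skeletal muscle markers was 367 in WT 1, 257 in WT 2, 254 in *Tlr7* KO 4 and 10.2 in *Ifnar1* KO 2, and below 0.5 in the others. The members and the related lists are also given without these libraries, after the lists.

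Per kilobase of transcript, WT glands had most of the simple epithelial keratins. *Krt18* was at 109.5 ± 16.1 and *Krt8* at 103.9 ± 6.06 CPM per kb (SD, n = 3), whose ranges overlapped. *Epcam*, an adhesion molecule of simple epithelium, followed at 36.3 ± 5.28 CPM per kb. *Acta2*, smooth muscle actin, was at 14.6 ± 2.42 and *Cdh1*, E-cadherin, at 11.4 ± 0.873 CPM per kb. *Krt14* was at 9.07 ± 0.858 and *Krt5* at 5.2 ± 1.79 CPM per kb. The duct members were the lowest class, with *Krt7* at 1.67 ± 0.194, *Krt19* at 0.373 ± 0.0225 and *Muc1* at 0.333 ± 0.126 CPM per kb. *Krt19* and *Muc1* did not differ beyond their spread. Whole glands hold few duct transcripts of these genes, and *Krt19* and *Muc1* were measured from 34 counts or fewer in every library.

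**Figure D1:**
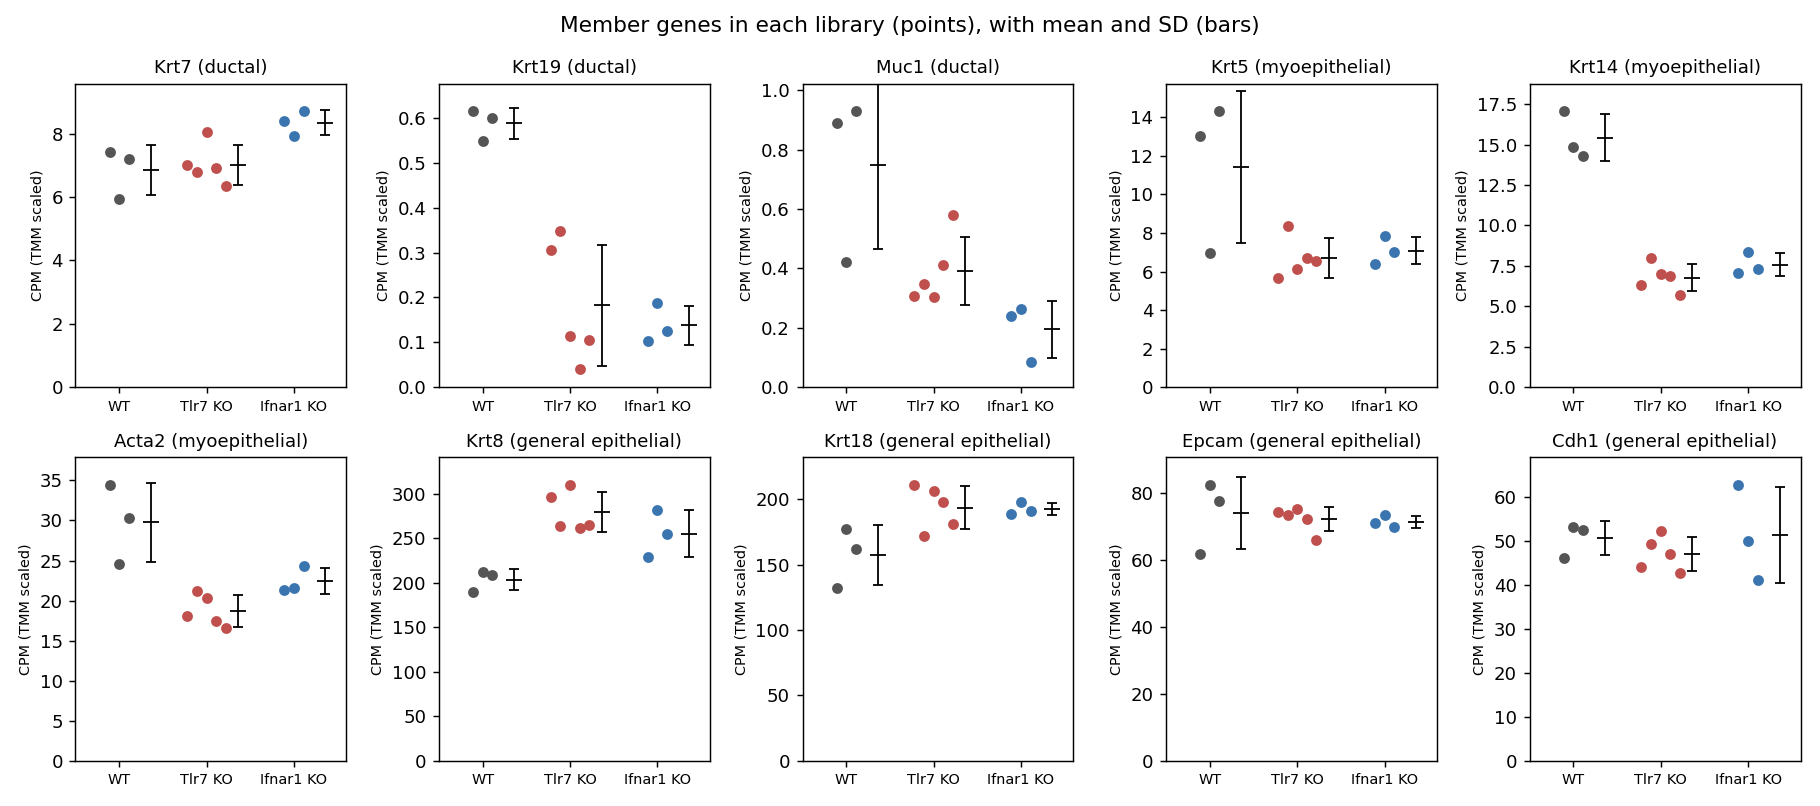
Level of each member in CPM (y axis, from 0) in every library, by group (x axis), with the group mean and SD as bars. *Krt14* was at 14.3 to 17.1 CPM in WT and 5.70 to 8.37 CPM in both knockouts, whereas *Epcam* overlapped between all groups.

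Comparison of *Tlr7* KO with WT glands showed lower myoepithelial genes and higher *Krt8*. All 3 myoepithelial members fell, *Krt19* fell among the duct members, and *Krt8* rose among the general epithelial members. Thus 4 members were called lower and 1 higher at an adjusted p under 0.05, where 17.4% of all 13937 genes tested were called lower and 15.3% higher (32.8% in either direction). The median log2 fold change was -0.78 over the 3 myoepithelial, -0.97 over the 3 duct and 0.13 over the 4 general epithelial members, against -0.04 over all genes tested. The first is the value of *Krt5* and the second that of *Muc1*, which was not called. The summed level of the 3 duct members, mostly *Krt7*, was 6.91 to 8.92 CPM in WT and 7.02 to 8.47 CPM in *Tlr7* KO mice.

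*Krt14*, the type I keratin of basal and myoepithelial cells, was at 17.1, 14.8 and 14.3 CPM in the WT mice and at 6.31, 8.0, 6.99, 6.88 and 5.70 CPM in the *Tlr7* KO mice. The groups did not overlap, as for 14.2% of genes in this direction (30.8% in either). Its log2 fold change was -1.19 (SE 0.115; edgeR's quasi-likelihood test, adjusted p = 0.000605). *Krt5*, its type II partner, was at 13, 6.96 and 14.3 CPM in WT and at 5.66, 8.39, 6.11, 6.71 and 6.54 CPM in *Tlr7* KO mice. WT 2 lay within the KO range. *Krt5* fell by 0.78 on the log2 scale (SE 0.219; edgeR adjusted p = 0.0236), and was not called without WT 1, WT 3, *Tlr7* KO 1 or *Tlr7* KO 3. *Acta2* was at 34.4, 24.6 and 30.3 CPM in WT and at 18.1, 21.2, 20.3, 17.5 and 16.5 CPM in *Tlr7* KO mice, with no overlap. It fell by 0.67 on the log2 scale (SE 0.121; edgeR adjusted p = 0.00428). Smooth muscle of vessels also makes *Acta2*. The summed level of 10 mural cell markers was 19.5 to 35.7 CPM in WT, 9.39 to 19.9 CPM in *Tlr7* KO and 8.08 to 10.1 CPM in *Ifnar1* KO mice. Of the 6 that were tested, 1 was called lower in each knockout (*Notch3* in *Tlr7* KO, *Des* in *Ifnar1* KO). That is 16.7% of them, where 17.4% and 12.4% of all genes were called lower. *Des*, which skeletal muscle also makes, was at 22.2, 21.4 and 11.8 CPM in WT 1, WT 2 and *Tlr7* KO 4, which held skeletal muscle transcripts, and at 3.42 CPM or less in the other libraries. Without *Des* the summed level was 9.74 to 16.1 CPM in WT, 8.11 to 9.0 CPM in *Tlr7* KO and 7.74 to 8.85 CPM in *Ifnar1* KO mice. The part of mural cells in the *Acta2* difference was not tested.

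Among the duct members, *Krt19* was at 18, 13 and 22 counts in the WT mice (0.615, 0.548 and 0.601 CPM) and at 8, 8, 3, 1 and 2 counts in the *Tlr7* KO mice (0.306, 0.348, 0.114, 0.0412 and 0.106 CPM). No KO mouse reached a WT mouse. *Krt19* fell by 1.65 on the log2 scale (SE 0.525; edgeR adjusted p = 0.0378), from a level at which few counts set the value, and was not called without WT 1, WT 3, *Tlr7* KO 3, *Tlr7* KO 4 or *Tlr7* KO 5, nor in the second count table. Without 1 mouse, 18.7% to 47.8% of all genes were called. *Muc1*, a mucin of the apical surface, was at 26, 10 and 34 counts in WT and 8, 8, 8, 10 and 11 counts in *Tlr7* KO mice, or 0.889, 0.422 and 0.929 against 0.306, 0.348, 0.304, 0.412 and 0.581 CPM. WT 2 again lay within the KO range, and the log2 fold change of -0.97 was not called (SE 0.363; edgeR adjusted p = 0.067), though it was in 3 of 19 alternatives, without WT 2, with library size alone and with scaling to the junction genes (edgeR adjusted p = 0.0124, 0.0293 and 0.0366). *Krt7* was at 7.42, 5.94 and 7.18 CPM in WT and 7.0, 6.78, 8.05, 6.92 and 6.33 CPM in *Tlr7* KO mice. The groups overlapped, and the 95% interval of its log2 fold change was -0.23 to 0.29.

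*Krt8*, the type II keratin of simple epithelium, was at 190.0, 212 and 208 CPM in WT and at 296, 264, 309.8, 261 and 265 CPM in *Tlr7* KO mice, with no overlap, as for 16.6% of genes in this direction. It rose by 0.45 on the log2 scale (SE 0.0948; edgeR adjusted p = 0.00767), but not under every scaling of the libraries. With library size alone its log2 fold change was -0.04, as the median of all genes moved to -0.54, and with scaling to the junction genes, where that median was -0.31, *Krt8* was not called. *Krt18* was at 132, 178 and 162 CPM in WT and 211, 172, 206, 198 and 181 CPM in *Tlr7* KO mice, and its log2 fold change of 0.30 was not called (SE 0.117; edgeR adjusted p = 0.0773). *Epcam* was at 61.9 to 82.4 CPM in WT and 66.0 to 75.4 CPM in *Tlr7* KO mice, with a 95% interval of its log2 fold change of -0.26 to 0.19. *Cdh1* was at 46.1 to 53.1 CPM in WT and 42.6 to 52.2 CPM in *Tlr7* KO mice, with an interval of -0.31 to 0.09. Both overlapped between the groups. Scaling to the junction genes, a list of epithelial genes, called *Epcam* and *Cdh1* lower at -0.30 and -0.38 (edgeR adjusted p = 0.0123 and 0.00749), and library size alone called *Cdh1* lower (edgeR adjusted p = 0.0461).

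Comparison of *Ifnar1* KO with WT glands gave fewer calls, with lower *Krt14* and *Krt19*. With *Muc1*, which passed the filter on low counts through its WT counts and was not called without that filter, 3 members were called lower and 0 higher, where 12.4% of genes tested were called lower and 6.76% higher (19.2% in either direction). At an unadjusted p under 0.05, edgeR also had *Krt5* and *Acta2* lower and no member higher, and DESeq2 called the same 3 members lower and 0 higher. The median log2 fold change was -1.94 over the duct, -0.72 over the myoepithelial and 0.13 over the general epithelial members, against -0.02 over all genes. The duct median is the value of *Muc1*, at 2 to 7 counts in *Ifnar1* KO mice. The summed level of the 3 duct members, mostly *Krt7*, was 6.91 to 8.92 CPM in WT and 8.37 to 8.92 CPM in *Ifnar1* KO mice. This comparison uses the same WT mice as the one above, and its KO group was selected as described.

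*Krt14* was at 7.08, 8.37 and 7.28 CPM in the *Ifnar1* KO mice, below every WT mouse, as for 21.1% of genes in this direction (41.8% in either). It fell by 1.04 on the log2 scale (SE 0.129; edgeR adjusted p = 0.0207). *Krt5* was at 6.40, 7.84 and 7.03 CPM, a range that held WT 2, and its log2 fold change of -0.72 was not called (SE 0.268; edgeR adjusted p = 0.0962). *Acta2* was at 21.4, 21.6 and 24.4 CPM. All 3 were below the WT mice, though the log2 fold change of -0.43 was not called (SE 0.152; edgeR adjusted p = 0.0844).

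*Krt19* was at 3, 5 and 3 counts in the *Ifnar1* KO mice (0.102, 0.187 and 0.126 CPM). It fell by 2.08 on the log2 scale (SE 0.449; edgeR adjusted p = 0.026). Like *Muc1*, it passed the filter on low counts through its WT counts, which summed to 53 against 11 in *Ifnar1* KO and 22 in *Tlr7* KO mice. In both knockouts it was also called with no filter and with edgeR's own filter (filterByExpr). *Muc1* was at 7, 7 and 2 counts (0.238, 0.261 and 0.0837 CPM), below every WT mouse, with a log2 fold change of -1.94 (SE 0.546; edgeR adjusted p = 0.0469). It was called in 6 of 16 alternatives. It was not called with no filter (edgeR adjusted p = 0.0513), in the second count table (0.0513) or with library size alone (0.0769), and was not tested under filterByExpr, which it did not pass. *Krt7*, in contrast, was at 8.40, 7.92 and 8.71 CPM, above every WT mouse, as for 20.7% of genes, with a log2 fold change of 0.26 that was not called (SE 0.146; edgeR adjusted p = 0.23). None of the 3 calls was made without WT 1, *Ifnar1* KO 1 or *Ifnar1* KO 3, and *Krt14* alone was called without WT 3, but in these 4 fits at most 0.868% of all genes were called by edgeR. Without WT 2, 5 members were called lower, where 33.5% of all genes were called.

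*Krt8* was at 229, 282 and 255 CPM in the *Ifnar1* KO mice and *Krt18* at 189, 198 and 191 CPM. Both sets lay above the WT mice, as for 20.7% of genes in this direction (41.8% in either). The log2 fold changes of 0.31 (SE 0.151; edgeR adjusted p = 0.18) and 0.27 (SE 0.155; edgeR adjusted p = 0.239) were not called. *Epcam* was at 69.9 to 73.4 CPM, with a 95% interval of its log2 fold change of -0.39 to 0.24. *Cdh1* was at 62.6, 49.9 and 41.0 CPM, a wider spread than in WT, with an interval of -0.38 to 0.37.

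**Figure D2:**
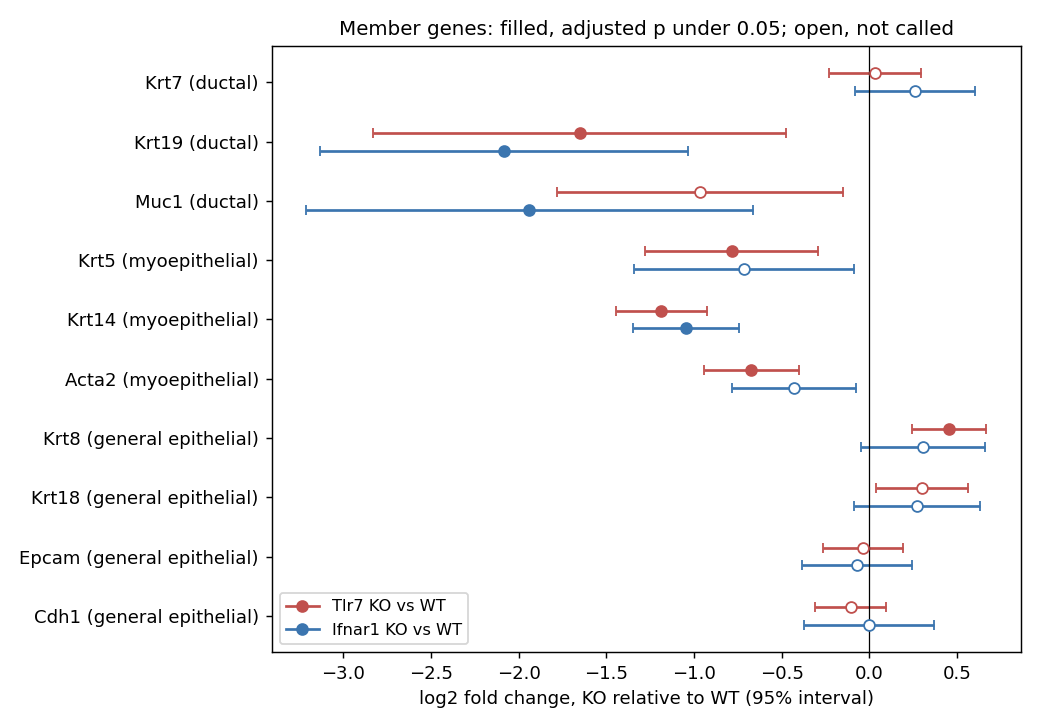
Log2 fold change of each member (x axis) in *Tlr7* KO and *Ifnar1* KO relative to WT glands, with the 95% interval as bars and filled points for an adjusted p under 0.05. *Krt14* was called lower in both comparisons, at -1.19 and -1.05, and the intervals of *Krt7*, *Epcam* and *Cdh1* held 0.

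The 2 knockouts were then compared directly. No member was called (0 higher and 0 lower), where 1.79% of genes tested were called. At an unadjusted p under 0.05, edgeR had 2 members, *Krt7* and *Acta2*, both lower in *Tlr7* KO, and DESeq2 called 0. *Acta2* was lower in every *Tlr7* KO than in every *Ifnar1* KO mouse, as for 5.24% of genes, with a log2 fold change of -0.26 (95% interval -0.46 to -0.06; edgeR adjusted p = 0.203). *Muc1* was higher in every *Tlr7* KO mouse, as for 5.47% of genes (10.7% in either direction), with a log2 fold change of 0.95 (95% interval -0.05 to 1.95; edgeR adjusted p = 0.33). For *Krt14* the interval was -0.42 to 0.11 and for *Krt19* -1.09 to 1.91. A member called in 1 knockout and not in the other was thus not shown to differ between them.

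Ratios of counts within a library, taken with 0.5 added to each count, do not need the libraries to be scaled. *Krt14* was at 0.0688 to 0.0899 of the *Krt8* count in WT, 0.0214 to 0.0304 in *Tlr7* KO and 0.0287 to 0.0310 in *Ifnar1* KO mice. Neither knockout overlapped WT. The mean log2 ratio differed from WT by -1.64 in *Tlr7* KO (exact two-sided permutation test, p = 0.0179, the smallest that 3 against 5 mice allow) and by -1.34 in *Ifnar1* KO mice (exact p = 0.1, the smallest that 3 against 3 allow). *Acta2* counts were 1.66 to 2.12 times *Krt14* in WT, 2.54 to 2.90 times in *Tlr7* KO and 2.58 to 3.34 times in *Ifnar1* KO mice. The log2 ratio was higher by 0.53 in *Tlr7* KO (exact permutation p = 0.0179) and 0.62 in *Ifnar1* KO mice (exact permutation p = 0.1). The *Krt7*/Krt19 ratio, with 0.5 added to each count, was 10.5 to 11.8 in WT, 18.4 to 112 in *Tlr7* KO and 38.6 to 70.7 in *Ifnar1* KO mice. The value of 112 is that of *Tlr7* KO 4, which had 1 *Krt19* count. *Krt8* was 1.19 to 1.44 times *Krt18* in WT, 1.32 to 1.54 times in *Tlr7* KO and 1.21 to 1.43 times in *Ifnar1* KO mice, and the groups overlapped. *Krt5* was 0.470 to 1.0, 0.875 to 1.15 and 0.904 to 0.966 times *Krt14*, with 0.470 in WT 2. Over the 21 ratio comparisons, 0 passed after Benjamini-Hochberg adjustment (adjusted p = 0.175 for each of the ratios named here as not overlapping).

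**Figure D3:**
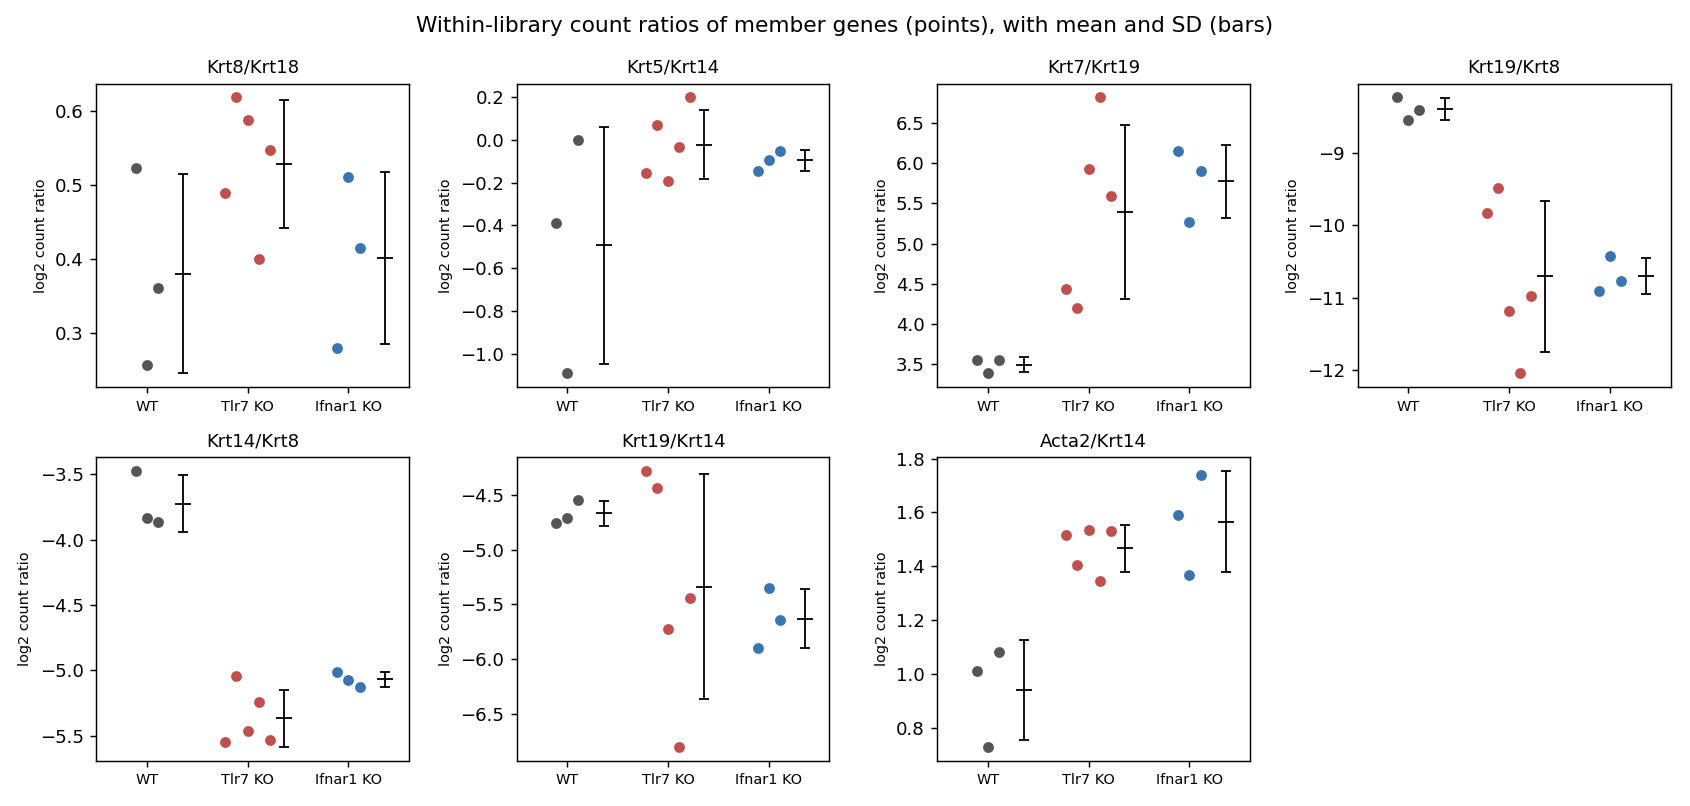
Log2 ratio of the counts of 2 members (y axis) in each library by group (x axis), with mean and SD as bars. *Krt14*/Krt8 was lower, and *Acta2*/Krt14 and *Krt7*/Krt19 higher, in every knockout mouse than in every WT mouse.

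Genes of the same classes that are not members were described from lists, beside 17.4% of all genes called lower and 15.3% higher in *Tlr7* KO, and 12.4% and 6.76% in *Ifnar1* KO mice. Of 12 tested duct genes, 4 were called lower in *Tlr7* KO and 3 in *Ifnar1* KO mice, and 0 higher in either by edgeR (1 in each at an unadjusted p under 0.05; by DESeq2, 0 in *Tlr7* KO and 1 in *Ifnar1* KO mice), with a median log2 fold change of -0.37 and -0.66. The duct genes called in either direction were thus 33.3% and 25.0%, near the 32.8% and 19.2% of all genes. *Car2*, a carbonic anhydrase, fell from 2.54 CPM in WT to 0.422 CPM in *Tlr7* KO (log2 fold change -2.60, edgeR adjusted p = 0.0035) and 0.392 CPM in *Ifnar1* KO mice (-2.69, edgeR adjusted p = 0.023). *Wfdc2*, a secreted protein of duct epithelium, fell by 1.45 and 1.34 on the log2 scale (edgeR adjusted p = 0.0067 and 0.037). *Elf3*, an epithelial transcription factor, fell by 0.96 in *Tlr7* KO mice (edgeR adjusted p = 0.0147) and *Lcn2*, an iron-scavenging protein also made in inflammation, by 1.56 in *Ifnar1* KO mice (edgeR adjusted p = 0.0338).

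Of 9 tested contractile genes, 5 were called lower in *Tlr7* KO and 3 in *Ifnar1* KO mice, or 55.6% and 33.3% of the list in either direction, with a median of -0.68 and -0.50. *Tagln*, an actin-binding protein, fell by 0.92 (edgeR adjusted p = 0.00191) and 0.95 (edgeR adjusted p = 0.0207). *Mylk*, myosin light chain kinase, fell by 0.87 (edgeR adjusted p = 0.000759) and 0.50 (edgeR adjusted p = 0.037). *Myh11*, smooth muscle myosin, fell by 0.77 in *Tlr7* KO mice (edgeR adjusted p = 0.00269), and *Tpm2*, a tropomyosin of skeletal muscle too, by 1.75 in *Ifnar1* KO mice (edgeR adjusted p = 0.041). Of 11 basal genes, 4 were called lower and 1 higher in *Tlr7* KO, and 2 lower and 1 higher in *Ifnar1* KO mice. These were 45.5% and 27.3% of the list in either direction. *Trp63*, the transcription factor of basal cells, fell by 1.20 in *Tlr7* KO mice (edgeR adjusted p = 0.0041), and *Dst*, a hemidesmosome linker of keratin, by 1.0 (edgeR adjusted p = 0.00306) and 1.19 (edgeR adjusted p = 0.023). *Sfn* fell by 1.25 in *Ifnar1* KO mice (edgeR adjusted p = 0.0457).

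Of 26 junction and epithelial identity genes, 9 were higher and 2 lower in *Tlr7* KO and 5 higher and 0 lower in *Ifnar1* KO mice (by edgeR, 0 also at an unadjusted p under 0.05, and 0 by DESeq2), or 42.3% and 19.2% in either direction, with a median of 0.19 and 0.33. These directions rest on TMM scaling. With library size alone, 0 were called higher and 4 lower in *Tlr7* KO and 0 either way in *Ifnar1* KO mice. With TMM scaling, *Jup*, plakoglobin, rose by 0.56 and 0.67 on the log2 scale (edgeR adjusted p = 0.00629 and 0.0267), and *Cldn7*, a claudin, fell by 0.58 in *Tlr7* KO mice (edgeR adjusted p = 0.0167). Of 11 acinar genes, 4 were higher and 2 lower in *Tlr7* KO and 3 higher and 1 lower in *Ifnar1* KO mice (54.5% and 36.4% in either direction), which became 1 higher and 3 lower in *Tlr7* KO, and 0 either way in *Ifnar1* KO mice, with library size alone. *Lpo*, the secreted lactoperoxidase, rose from 1594 CPM in WT to 4527 and 4753 CPM (edgeR adjusted p = 0.0031 and 0.0265). Among 6 other keratins tested, of which 0 were called higher with library size alone in either knockout, *Krt80* rose by 1.44 and 1.23 (edgeR adjusted p = 0.00214 and 0.0216), *Krt79* rose by 1.36 in *Tlr7* KO mice (edgeR adjusted p = 0.0263) and *Krt17* fell by 1.07 in *Ifnar1* KO mice (edgeR adjusted p = 0.0472). *Krt83*, a hair keratin at 0.311 CPM in WT, was at 0.0748 CPM in *Tlr7* KO mice (edgeR adjusted p = 0.0342), a call that DESeq2, filterByExpr and the second table did not make and that was lost without any 1 mouse other than WT 2. It passed the filter on low counts through its WT counts (3 to 22 in a library, against 1 to 3 in *Tlr7* KO mice). It was at 0 counts in every *Ifnar1* KO library, at least 2.74-fold lower than WT when 3 counts per library are taken as the floor.

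**Figure D4:**
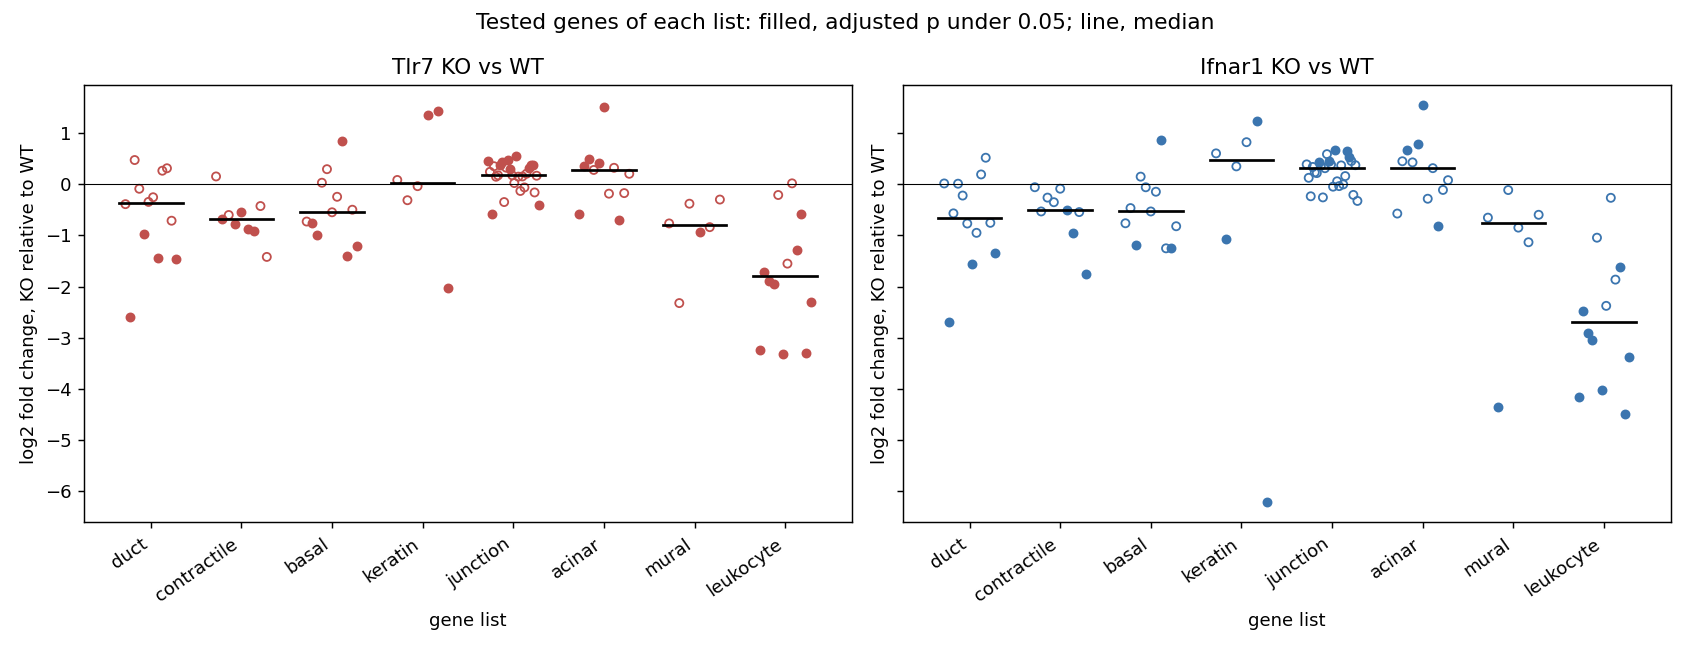
Log2 fold change relative to WT (y axis) of every tested gene of 8 lists (x axis) in *Tlr7* KO (left) and *Ifnar1* KO mice (right), with filled points for an adjusted p under 0.05 and a line at the list's median. The contractile median was at -0.68 and -0.50 and the junction median at 0.19 and 0.33, the latter with TMM scaling, since library size alone called 0 junction genes higher.

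Leukocyte markers moved with these groups. The summed level of 12 markers was 229 to 546 CPM in WT, 151 to 220 CPM in *Tlr7* KO and 45.2 to 154 CPM in *Ifnar1* KO mice. Of the 12, 9 and 8 were called lower, where 17.4% and 12.4% of all genes were. All 12 were detected in each library except *Ifnar1* KO 3, where 2 were at 0 counts. WT 2 had the lowest leukocyte level of the WT mice. It was also the lowest of them for *Krt7*, *Krt19*, *Muc1*, *Krt5* and *Acta2*. For *Krt8*, *Krt18*, *Epcam* and *Cdh1* it was the highest, and for *Krt14* it lay between the others. The part of leukocyte RNA in the member differences was not tested. Without the libraries that held skeletal muscle markers, the WT library left was WT 3, whose salivary gland markers summed to 2456 CPM. Against 4 *Tlr7* KO mice, *Krt14*, *Acta2* and *Krt5* were called lower, with log2 fold changes of -1.07, -0.66 and -1.09, and *Krt8* higher at 0.46, where 15.5% of all genes were called lower and 15.5% higher. Against 2 *Ifnar1* KO mice, of which *Ifnar1* KO 1 held 178 CPM of salivary gland markers, *Krt14*, *Krt5* and *Muc1* were called lower at -1.02, -1.12 and -2.47, where 15% of all genes were called lower and 4.05% higher. *Krt19* was called in neither, at -1.41 in *Tlr7* KO (edgeR adjusted p = 0.134) and -2.39 in *Ifnar1* KO mice (edgeR adjusted p = 0.0543). A lone library, here WT 3 and below *Ifnar1* KO 3, is assumed to vary like the others. Without the libraries that held salivary gland markers, *Krt14* and *Acta2* were called lower in *Tlr7* KO mice at -1.23 and -0.66 and *Krt8* higher at 0.47, where 9.36% of all genes were called lower and 9.31% higher. Of the *Ifnar1* KO mice 1 was left, and 2.41% of all genes were called against it. There 0 members were called by edgeR, with *Krt14* at -1.15, *Krt19* at -2.19 and *Muc1* at -2.93 (edgeR adjusted p = 0.139, 0.54 and 0.405). In both exclusions the compared libraries thus differ in the other tissue's markers. These exclusions were chosen after seeing the data.

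The related lists were counted under the same exclusions. In *Tlr7* KO mice, 5 duct, 5 contractile, 3 basal and 9 leukocyte genes were called lower by edgeR without the skeletal muscle libraries, and 2, 7, 2 and 6 without the salivary gland libraries, where *Elf3* was at -0.76 (edgeR adjusted p = 0.0704) and 1 duct gene, *Sox9*, was called higher at 0.53 (edgeR adjusted p = 0.0208). In the same order, 9 and 5 junction, 5 and 2 acinar and 2 and 1 keratin genes were called higher. Without the skeletal muscle libraries, 3 junction genes, 3 acinar genes and *Krt83* were called lower, and without the salivary gland libraries 1 acinar gene, while *Krt79* was then at 0.99 (edgeR adjusted p = 0.0798). In *Ifnar1* KO mice, 3 duct, 1 contractile, 1 basal and 11 leukocyte genes were called lower without the skeletal muscle libraries. *Tpm2* was then at -0.22 (edgeR adjusted p = 0.553), whereas *Mylk* at -0.43, *Sfn* at -1.61 and *Wfdc2* at -1.63 missed the threshold (edgeR adjusted p = 0.204, 0.0527 and 0.0653) with log2 fold changes near or beyond those with all libraries. Of the other lists, 3 junction, 2 acinar and 1 keratin genes were called higher and 2 acinar and 1 keratin genes lower, and *Jup* was at 0.76 and *Krt17* at -0.99 (edgeR adjusted p = 0.0684 and 0.201). Without the salivary gland libraries, with the lone *Ifnar1* KO 3 left and 2.29% of all genes called lower, 2 duct, 1 contractile and 7 leukocyte genes were called lower. There 0 junction, acinar or keratin genes were called by edgeR, with 1 of each higher and 1 keratin lower at an unadjusted p under 0.05, and *Jup* was at 0.78 and *Krt17* at -1.76 (edgeR adjusted p = 0.344 and 0.309). Of the 6 mural genes, 3 in *Tlr7* KO and 2 in *Ifnar1* KO mice were called lower without the skeletal muscle libraries, *Des* among them at -1.88 and -2.64 (edgeR adjusted p = 0.00491 and 0.00433).

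The genes whose level followed a member most closely over the 11 libraries were sought in the 7495 genes whose mean level reached 5 CPM. For *Krt14* these included *Ccn2* (Pearson r = 0.974), *Tagln* (0.974), *Add1* (0.957) and *Slmapos2* (0.957). For *Krt19* they were *Pou2af1* (0.926), a B cell coactivator, *Plekhb2* (0.922), *Phc2* (0.897), *Gimap6* (0.896) and *Gprasp1* (0.892). For *Krt8* they were *Pafah2* (0.958), *Afg3l1* (0.949), *Gm8978* (0.942), *Tgds* (0.938) and *Rbm47* (0.933). The libraries share group differences and composition, and after group means were removed r ranged from 0.457 (*Add1*) to 0.835 (*Tagln*) for the genes named with *Krt14*, from 0.644 to 0.794 for those with *Krt19* and from 0.713 to 0.863 for those with *Krt8*. These are descriptions over the 11 libraries.

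**Figure D5:**
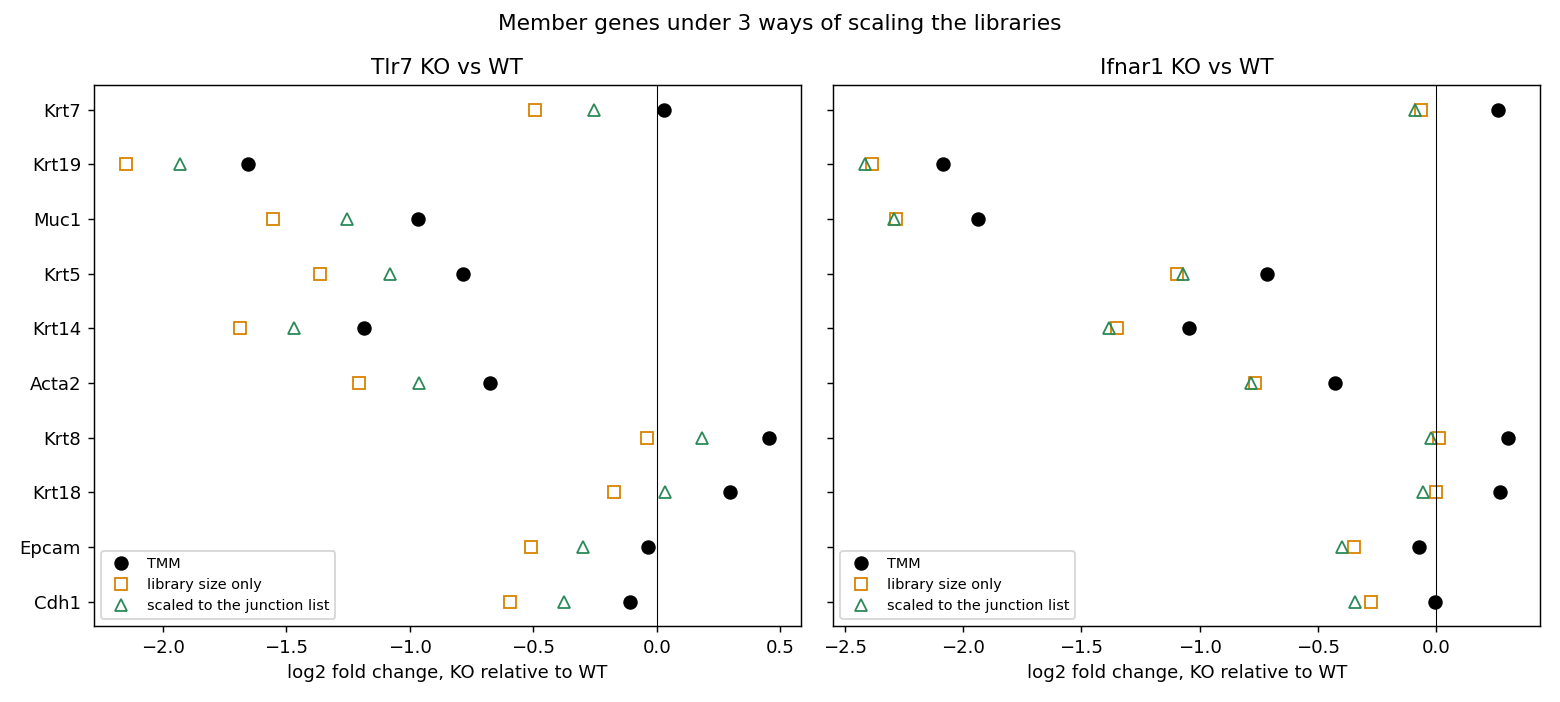
Log2 fold change of each member relative to WT (x axis) with TMM scaling, library size alone, and scaling to the junction genes. *Krt14* lay below 0 under each, and *Krt8* in *Tlr7* KO was at 0.45 with TMM and -0.04 with library size alone.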

How the data were processed

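Whole lacrimal glands of 3 WT, 5 *Tlr7* KO and 3 *Ifnar1* KO male NOD mice were sequenced. Transcript abundance was estimated by the authors with salmon and collapsed to gene level by tximport. The deposited estimated counts cover 19058 genes on mm10 and were rounded to whole numbers by the authors. The file name calls them normalized, but the columns differ in total, so they were used as counts. A second deposited table of whole-number counts for 39017 genes, for which the submitters' processing notes name HISAT2 2.1.0, was an alternative. Same-mouse columns of both tables correlated at 0.894 to 0.970 whereas columns of unlike mice reached 0.633. In addition, 1 column, named for a further *Ifnar1* KO mouse, has no sample and was left unused.

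Genes with at least 30 counts summed over WT were tested with edgeR 4.0.16 in R 4.3.3 (TMM, quasi-likelihood, pairwise fits), with Benjamini-Hochberg adjustment over 13937 genes and calls at an adjusted p under 0.05. The script was tested on simulated data. DESeq2 1.42.0 was an alternative. Ratios had 0.5 added to each count and exact two-sided permutation tests. Transcript lengths and genes are from GENCODE M21 (GRCm38). Counting intervals and floors cover counting error only. The members and lists were chosen with earlier results of these data known. List genes are named if called, at a mean of at least 1 CPM, and among the 3 largest changes of a list, and called keratins are all named. Some genes that this rule or the search for like genes would name are not reported here. Other lists (fibroblast, endothelial, adipocyte) were read as markers of other cells. Of these, 3 of 8 fibroblast genes were lower in each knockout (*Dcn*, *Vim*, *Pdgfra*), 2 of 6 endothelial genes lower in each (*Pecam1*, *Cdh5*) and 1 higher in *Tlr7* KO (*Kdr*), and 0 of 4 adipocyte genes were called by edgeR (0 at an unadjusted p under 0.05, and 0 by DESeq2). Over all genes, 17.4% and 12.4% were called lower and 15.3% and 6.76% higher.

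Same-numbered mice of the 2 knockouts deviated together (r = 0.16, 0.291 and 0.333), while mice of unlike numbers reached 0.151. The pairing rule used here takes same-numbered knockout mice as paired from the data only, as the labels name no pairing. The main fits and ratio tests given between the knockouts did not use this pairing. Blocking changed no member's call between the knockouts. Same-numbered WT and knockout mice did not deviate together (r = -0.475 to 0.0787).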

Additional observations from a re-analysis of the deposited data

Results flagged for a closer look

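Of 30 sets of values in the *Tlr7* KO mice, the only group of a size that was examined, 3 had a mouse far from the other 4, and chance gives about 1 in 20. The summed mural cell marker level was 19.9 CPM in *Tlr7* KO 4, against 9.39 to 10.1 CPM in the others. *Des* made up 11.8 CPM of it, and without *Des* the same mouse was the lowest of the 5 at 8.11 CPM. The summed skeletal muscle marker level was 254 CPM in *Tlr7* KO 4, against 0.114 to 0.369 CPM. The summed salivary gland marker level was 3.11 CPM in *Tlr7* KO 5, against 0.650 to 1.11 CPM. No level or ratio of the 10 members stood apart in this way.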

How the results depend on the processing

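Over 547 refits of a member, 460 kept the direction and side of the threshold, 41 lost the call, 14 gained one and 32 changed sign, of which *Krt8* in *Tlr7* KO was the one called before. Of the 460, 180 were between the knockouts, where no member was called at first. In *Tlr7* KO the call was made for *Krt14* and *Acta2* in 18, *Krt8* in 16, *Krt5* in 13 and *Krt19* in 10 of 19 refits. In *Ifnar1* KO it was made for *Krt14* in 12 and *Krt19* in 10 of 17, and for *Muc1* in 6 of 16. Low counts limit *Krt19* and *Muc1*, and 3 mice in a group limit every comparison with WT. Causes of the changes below were not tested.

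Against 4 members lower and 1 higher in *Tlr7* KO, library size alone gave 6 lower (*Muc1* and *Cdh1* gained) and 0 higher, junction scaling 7 lower (*Muc1*, *Cdh1* and *Epcam* gained) and 0 higher, and the salivary exclusion 2 lower. With library size alone and with junction scaling, most calls over all genes were lower too, as the shares below show. The members thus moved with the genes in general. Against 3 lower and 0 higher in *Ifnar1* KO, a fit of all 11 mice gave 5 lower and 1 higher, and the salivary exclusion 0 lower. Leaving out 1 mouse gave 2 to 5 lower and 1 to 2 higher in *Tlr7* KO and 0 to 5 lower in *Ifnar1* KO, where 0 to 4666 of all genes were called against 2602 to 6664 in *Tlr7* KO. Sign changes with library size alone were *Krt7* -0.49, *Krt8* -0.038 and *Krt18* -0.17 in *Tlr7* KO, *Krt7* -0.063 and *Krt18* -0.002 in *Ifnar1* KO, and *Krt8* -0.05, *Krt18* -0.17 and *Epcam* -0.16 between the knockouts. With junction scaling they were *Krt7* -0.255 in *Tlr7* KO and *Krt7* -0.088, *Krt8* -0.022 and *Krt18* -0.054 in *Ifnar1* KO. *Cdh1* in *Ifnar1* KO changed to 0.004 with no filter, 0.019 in the fit of 11 mice and 0.039 in the second table. *Krt5* between the knockouts was 0.022 in the second table. Exclusions gave *Epcam* 0.00298 and *Krt7* -0.0158 in *Tlr7* KO, and *Cdh1* 0.215 between the knockouts. Without 1 mouse, *Krt7* ranged from -0.06 to 0.09 and *Epcam* from -0.15 to 0.045 in *Tlr7* KO, *Epcam* from -0.18 to 0.005 and *Cdh1* from -0.15 to 0.12 in *Ifnar1* KO, and *Krt18* from -0.01 to 0.053 and *Cdh1* from -0.255 to 0.053 between the knockouts. The log2 ratio *Krt8*/Krt18 in *Ifnar1* KO was -0.003 in the second table and -0.04 to 0.094 without 1 mouse. *Krt19*/Krt14 in *Tlr7* KO was 0.155 and *Krt19*/Krt8 between the knockouts 0.093 with a pseudocount of 5, and the latter -0.31 to 0.33 without 1 mouse. Of 196 ratio refits, 0 passed the threshold.

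With a replicate block, 0 members were called lower and 0 higher in either knockout, and *Krt14* had a log2 fold change of -1.12 (edgeR adjusted p = 0.0757) in *Tlr7* KO and -1.04 (edgeR adjusted p = 0.117) in *Ifnar1* KO. *Epcam* was 0.015 in *Tlr7* KO with the block. The WT mice share only a number with the others. Of all genes, the block called 14 in *Tlr7* KO against 4566, 0 in *Ifnar1* KO against 2677, and 502 between the knockouts against 250. There DESeq2 called 577 and the fit of 11 mice 93, which called 5124 in *Ifnar1* KO, where library size alone called 1340. The share of calls that were lower moved from 53.2% to 97.2% (library size alone) and 88.2% (junction scaling) in *Tlr7* KO, and from 64.8% to 96.2% and 95.8% in *Ifnar1* KO, as the median of all genes moved to -0.54 and -0.31, and to -0.31 and -0.355.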
